A study of Mus musculus with 9 samples.

Results

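Mixed aggregates of basal and luminal mouse mammary epithelial cells were compared, gene by gene, with the level that an equal mixture of the pure aggregates would give. The study sorted basal and luminal cells by flow cytometry and let them form aggregates of basal cells alone, of luminal cells alone, or of both in a 50% mixture. All cells were labelled as wild type, with no strain, age or sex among the labels. Every aggregate lay in Matrigel at 80% beside heparin sulfate beads of 100 to 150 µm, placed about 100 µm away and soaked in FGF10 at 100 µg/mL, and no group was without FGF10. RNA was taken after migration, at 55 h by the titles and 56 h by the treatment labels. Each group had 3 libraries, so that 3 of 9 libraries were mixed. The expectation for a gene was the sum of 50% of the mean of the 3 basal libraries and 50% of the mean of the 3 luminal libraries, in CPM, counts scaled to a common library total, after TMM scaling, which adjusts each library for its composition. The counts cover 54456 gene names, of which 20527 were at 0 in all libraries. After removal of low counts 18051 were tested.

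The mammary duct has an outer layer of basal cells, which contract and touch the basement membrane, around luminal cells that face the lumen and include progenitors and hormone-sensing cells. Basal cells are known by Krt5, Krt14 and Trp63, and luminal cells by Krt8 and Krt18. FGF10, a ligand made by the surrounding stroma, acts on epithelial FGF receptors and directs the growth of ducts, and the 2 cell layers also signal to each other, for example through Notch, epidermal growth factor and BMP ligands. A mixture of RNA adds on the linear scale, so a gene that each cell kind expresses as it does alone would lie at the expectation if both kinds gave equal amounts of RNA. In these bulk samples fewer cells of a type and less RNA per cell cannot be told apart.

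Libraries held 15585324 to 19164405 counts, at which 3 counts stand for 0.152 to 0.187 CPM. Nothing in the labels ties the libraries of 1 group to different animals or cultures, so p-values measure only the spread between these libraries, which may be technical. The column names of the table fall into 3 code series: basal 2 and all mixed libraries are in series A, basal 1, basal 3 and luminal 1 in series B, and luminal 2 and 3 in series C. Against the mean of the other 2 libraries of its group, basal 2 differed by a median absolute log2 ratio of 0.429 over 11427 genes at 10 CPM or more, where the other pure libraries differed by 0.167 to 0.294. Some transcripts typical of other cells followed series A, and which cells they came from was not tested. Hba-a1, an alpha globin gene, stood at 7.22 CPM in basal 2 and at 11.4, 11.3 and 19.6 CPM in the mixed libraries but at 0.162 CPM or less elsewhere. Cd74, an antigen presentation gene, stood at 27.3 CPM in basal 2 and 26.7, 26.3 and 36.4 CPM in the mixed libraries, and at 1.88 CPM or less elsewhere. Mucl2, a mucin-like gene, and Prol1, a proline-rich gene of lacrimal glands, were chosen after their values were seen. Mucl2 stood at 304, 304 and 579 CPM in the mixed libraries and 0, 206 and 0 in the basal ones, and was at 0 in the luminal ones. Prol1 stood at 78.3, 75.9 and 171 CPM in the mixed libraries and 48.2 in basal 2, and at 0.0622 CPM or less elsewhere. Their ratios to the expectation were not called (log2 3.52 and 3.75, edgeR adjusted p = 0.40 and 0.19). Summed over 11 immune markers the mixed libraries held 50.2 to 70.6 CPM, basal 2 held 53.0, basal 1 and 3 held 4.54 to 5.68 and luminal libraries 22.4 to 54.2. Nearly all of the luminal sums was Cd68, at 24.8, 20.9 and 50.2 CPM in luminal libraries. Cd68 stood at 5.84, 3.81 and 7.35 CPM in mixed and 2.33, 3.91 and 3.05 CPM in basal libraries. The sum over 10 adipocyte and red cell markers was 37.3 to 53.4 CPM in mixed libraries, 24.7 in basal 2 and at most 4.16 in the other 5. The defining adipocyte genes Adipoq and Plin1 were at 0 in all mixed libraries. For 10 fibroblast markers the mixed sums, 49.6 to 71.2 CPM, lay between luminal (7.002 to 11.5) and basal libraries (130 to 158). Much of the mixed and basal sums came from the basal-high gene Fbln1 (mixed 32.4, 29.2 and 33.1 CPM, basal 90.5, 131 and 95.9 CPM). Not every marker followed the sum. Col3a1 reached 8.50 CPM in mixed 3, above 3.55 in basal 1, the next highest library. Cd34 went the other way, with 0 in mixed 3 against 4.35 to 10.3 CPM for the basal group. Col1a1 stood at 1.32, 2.95 and 6.37 CPM in mixed libraries. For 11 endothelial and pericyte markers the mixed sums were 140 to 170 CPM against 50.5 to 99.2 in the pure libraries, most of it Notch3. Their part in the results below was not tested.

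Mixed aggregates differed from the expectation at 2553 of 18051 genes (14.1%), more often below than above it. By edgeR's quasi-likelihood test with Benjamini-Hochberg adjustment at 0.05, 859 genes stood above (4.76%) and 1694 below (9.38%), of which 345 and 970 were at least 2-fold away. All 3 mixed libraries were on the called side for each of these 2553 genes. Without adjustment 5984 genes had p under 0.05. The 4.76% above and 9.38% below are the shares against which the counts of gene lists further on can be read. The median log2 ratio to the expectation was -0.11 over all genes tested. Genes higher in luminal than in basal aggregates were below the expectation in 430 and above it in 134 of 2304, with a median log2 ratio of -0.24. Among the 2595 genes higher in basal aggregates 215 were below and 189 above, with a median of 0.06, and among the 13152 genes not called between the pure groups 1049 were below and 536 above. These classes use the same pure libraries as the expectation.

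**Figure D1:**
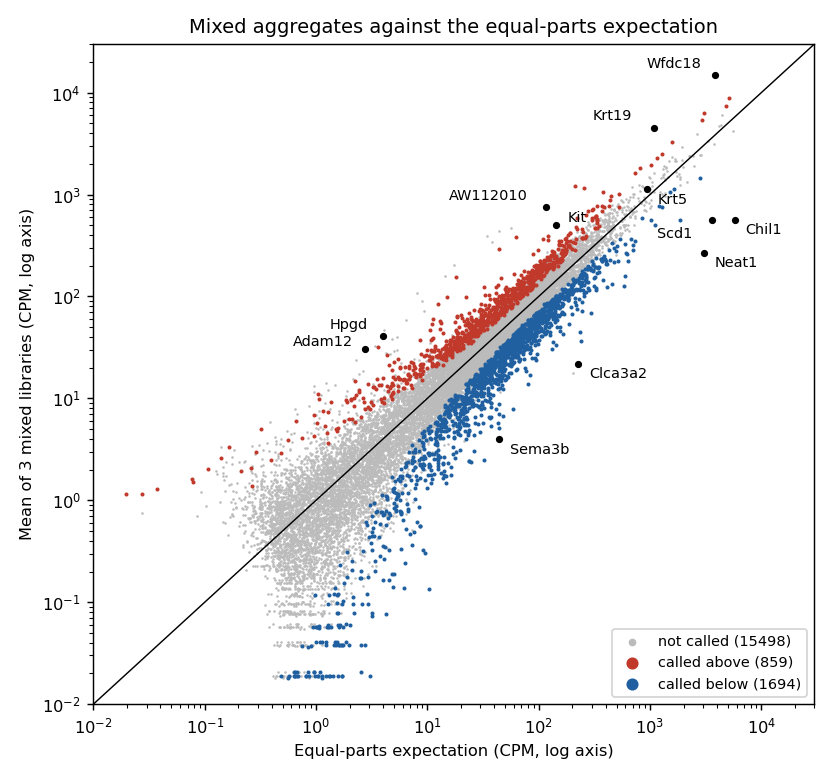
Mean of the 3 mixed libraries against the equal-parts expectation for tested genes, both in CPM on log axes, with 859 genes called above in red, 1694 called below in blue and others in grey. The line marks equality, and 196 genes at 0 in all mixed libraries cannot be drawn on a log axis.

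Each mixed library by itself lay away from the expectation. The median absolute log2 ratio was 0.397 in mixed 1, 0.376 in mixed 2 and 0.498 in mixed 3, and 67.0%, 70.6% and 57.4% of 11427 genes were within 1.5-fold. Basal 2 had 63.9% of genes within 1.5-fold of basal 1 and 3, a share within the range of the mixed libraries. Mixed 3 was the farthest of the 3. More genes were over 2-fold below than above in every mixed library, with 7.38% against 3.999%, 7.89% against 2.76% and 13.4% against 5.61%.

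Genes at least 16-fold apart between the pure groups were retained unequally. At 287 genes at least 16-fold higher in basal than in luminal aggregates, the median level in mixed 1, 2 and 3 was 48.1%, 42.1% and 51.6% of the basal mean. At 92 genes at least 16-fold higher in luminal aggregates it was 29.3%, 29.2% and 29.4% of the luminal mean. An equal mixture of RNA would give about 50% for both, and the 2 values added to 77.4%, 71.2% and 81.0%. Both gene sets were chosen in the same pure libraries whose means are the denominators. That choice can lower these values below 50% by itself. Genes spread widely around these medians, with 25th and 75th percentiles of 22.5% and 78.3% for basal genes in mixed 3 and of 15.3% and 53.0% for luminal genes in mixed 1. The 287 basal-high genes include mitosis genes as well as basal markers. In the mixed mean Mki67 stood at 89.5%, Top2a at 89.2% and Bub1b at 39.7% of the basal mean. Krt5 stood at 61.0%, Acta2 at 72.8%, Cdh3 at 25.4% and Pdpn at 22.8%. How far mitosis genes set the basal median was not tested. With a threshold of 4-fold the means over the mixed libraries were 52.9% and 43.6%. The share of basal RNA that placed the median of 3456 genes between the pure groups was 59.2%. With shares from 30% to 70% basal, 427 of the genes above and 1095 of those below kept their calls at each of the 4 shares tried. Called genes named below that did not included Prlr, Areg, Etv5, Cdh3 and Pdpn, not called at 30% basal. Fgfr1, Prom1, Mki67 and Birc5 were not called at 70%.

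**Figure D2:**
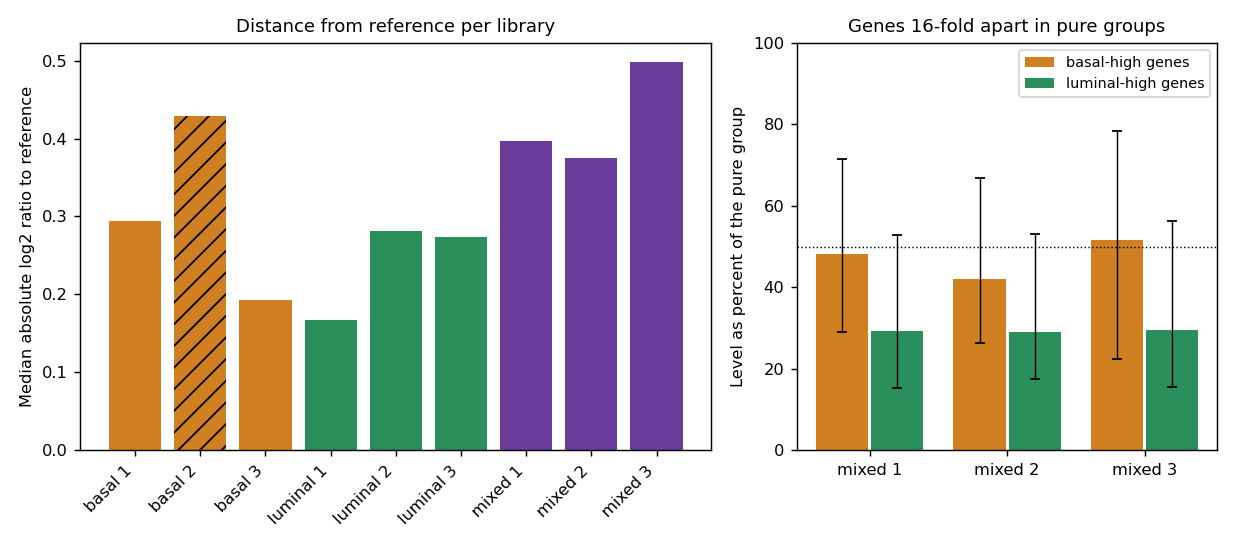
Left, the median absolute log2 ratio of each library to its reference, which is the expectation for mixed libraries (0.376 to 0.498) and the other 2 libraries of the group for pure ones, with basal 2 hatched (0.429). Right, the median level in each mixed library as a percentage of the pure group's mean, for 287 basal-high and 92 luminal-high genes, with bars from the 25th to the 75th percentile of genes and a dotted line at 50%.

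Because basal 2 shares the code series of the mixed libraries, the expectation was also computed with basal 2 as the only basal reference and with basal 1 and 3 only. Against basal 2 and the luminal libraries 284 genes were above (1.57%) and 1037 below (5.74%). Against basal 1, basal 3 and the luminal libraries 2706 were above (15%) and 3054 below (16.9%). The basal 2 reference is 1 library, whose spread is taken from the other groups, so the number of basal libraries and their series changed together; without basal 1 there were 361 and 848 calls and without basal 3 there were 227 and 541. Of the pooled calls 240 of 859 above and 977 of 1694 below were kept with basal 2 alone, none with the opposite call. With both references 267 genes were above (1.48%) and 1013 below (5.61%). In the basal group itself basal 2 lay past basal 1 and 3 on the same side as the mixed libraries for 80.8% of genes above, where 43.2% of all tested genes had basal 2 the highest, and for 78.3% of genes below, where 44.8% had it the lowest. The median log2 ratio of basal 2 to basal 1 and 3 was 0.53 for genes above, -0.52 for genes below and -0.03 over all. The luminal libraries are all from other series, so for the luminal part of the expectation the series and the group cannot be told apart in these comparisons.

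With the code series as a term in the fit, which links mixed to luminal libraries only through basal 2 and luminal 1, 47 genes were above and 50 below. In this fit 841 of the 859 and 1537 of the 1694 kept their sign. In a selection made after the values were seen, 22 genes above and 37 below were called in the pooled fit, against either basal reference and in the series fit. Among the 22 were Krt19, Kit, Aldh1a3, Podxl, Col12a1, Car2, Hpgd, Adam12, Rbp7, AW112010, Klk10, Krt4, Krt6a, Epb41l4a and Prlr. Among the 37 were Clca3a2, Chil1, Krt23, Sema3b, Nrg2, Bmp7, Lama1, Csn3, Trib3, Hmox1, Srxn1, Pdpn, Acaa1b and Tinagl1. This selection did not ask for a call at other basal shares, and Prlr and Pdpn lost theirs at 30% basal. Of the other genes named below as called, Sfrp1 was also called in the series fit, and the rest lost their call there, in a fit whose 4 residual degrees of freedom are fewer than the 6 of the pooled fit.

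Krt19, a keratin of luminal cells, was high in mixed aggregates beyond both pure kinds. It stood at 5014, 4601 and 3997 CPM in mixed 1, 2 and 3, at 809, 882 and 878 in basal libraries and at 1302, 1637 and 1069.5 in luminal ones, so that no mixed library overlapped a pure one. The expectation was 1096 CPM and the mixed mean was 4.14 times it (log2 2.05 ± 0.16, SE, n = 3 per group, edgeR adjusted p = 0.00049; mm39 chromosome 11, 100031636 to 100039491). The other keratin genes that define luminal cells did not pass. Krt8 differed by 0.21 ± 0.17 (adjusted p = 0.40, 95% interval -0.15 to 0.57) and Krt18 by -0.32 ± 0.19 (adjusted p = 0.26, -0.74 to 0.10). Epcam, an epithelial adhesion gene, stood at 1538, 1433 and 1490.0 CPM against an expectation of 1459.8 (0.03 ± 0.15, adjusted p = 0.92). Gata3, a transcription factor of luminal cells, was above at 417, 378 and 337 CPM in mixed and 385, 345 and 339.6 CPM in luminal libraries, which overlapped (log2 0.60 ± 0.15, adjusted p = 0.027). Elf3, an epithelial ETS factor, was below at 28.9, 34.3 and 24.5 CPM in mixed and 72.9, 78.2 and 72.4 CPM in luminal libraries (log2 -0.70 ± 0.17, adjusted p = 0.025). The call of Gata3 ended without basal 3, luminal 1, luminal 3 or any mixed library (adjusted p up to 0.092), and that of Elf3 without basal 3, luminal 1, luminal 3, mixed 1 or mixed 3 (up to 0.083). Of 16 luminal keratins and pan-luminal markers 3 were above and 1 below (median log2 0.17), where over all genes 4.76% were above and 9.38% below.

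Markers of luminal progenitors divided. Kit, a receptor tyrosine kinase of these cells, stood at 485, 467 and 548 CPM in mixed libraries, against 251, 186 and 296 in luminal and 57.4, 26.5 and 46.6 in basal ones (chromosome 5, 75735576 to 75817382). All mixed libraries exceeded all pure libraries, and the mean was 3.47 times the expectation of 144 CPM (log2 1.80 ± 0.24, adjusted p = 0.0040). Aldh1a3, a retinaldehyde dehydrogenase, stood at 898, 832 and 1162 CPM in mixed and 555, 814 and 638 CPM in luminal libraries and was 2.17 times its expectation (log2 1.12 ± 0.25, adjusted p = 0.021). Elf5, a transcription factor of the progenitor and milk-producing lineage, stood at 161, 170.3 and 173 CPM in mixed and 166, 150.3 and 131 CPM in luminal libraries, which overlapped, with 22.6, 29.7 and 25.3 in basal ones (log2 0.94 ± 0.15, adjusted p = 0.0067). Below its expectation was Ltf, lactoferrin, at 103, 112 and 164 CPM in mixed and 358, 1257 and 1797 CPM in luminal libraries (log2 -2.20 ± 0.60, adjusted p = 0.041). Sox10, a transcription factor gene, was also below, at 341, 348 and 306 CPM in mixed and 380.3, 334 and 364 CPM in basal libraries (log2 -0.46 ± 0.14, adjusted p = 0.048). Mixed and basal libraries of Sox10 overlapped, and its luminal mean, not printed here, was the higher part of the expectation. Over the list 3 of 13 were above and 2 below, against 4.76% and 9.38% over all genes, with a median log2 ratio of -0.04. The call of Aldh1a3 ended without luminal 1, luminal 3 or mixed 3 (adjusted p up to 0.080), that of Ltf without any library but basal 2 and luminal 1 (up to 0.11, and the ratio turned to 1.92 in the series fit), and that of Sox10 against basal 2 alone and without any library but basal 2 and luminal 2 (up to 0.16).

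Hormone-sensing markers were above the expectation in 5 and below it in 1 of 11, with a median log2 ratio of 0.82. The shares over all genes were 4.76% above and 9.38% below. Pgr, the progesterone receptor, stood at 138, 132 and 93.1 CPM in mixed, 58.1, 103 and 91.1 in luminal and 42.9, 44.3 and 45.5 in basal libraries, so that mixed 3 fell within the luminal range (log2 0.92 ± 0.20, adjusted p = 0.017). Areg, the epidermal growth factor ligand amphiregulin that these cells release, stood at 265, 213 and 150.1 CPM in mixed and 116, 237 and 133 CPM in luminal libraries, again overlapping (log2 0.99 ± 0.25, adjusted p = 0.027). Greb1, an estrogen-responsive gene, stood at 24.5, 16.1 and 9.69 CPM in mixed and 7.07, 11.3 and 17.6 CPM in luminal libraries (log2 1.32 ± 0.39, adjusted p = 0.047), and did not pass against basal 2 alone (adjusted p = 0.066). Esr1, the estrogen receptor, did not pass (0.82 ± 0.28, adjusted p = 0.072). Prlr, the prolactin receptor, was chosen after its values were seen and stood at 624, 623 and 543 CPM in mixed and 429, 698 and 590.2 CPM in luminal libraries against an expectation of 322. The mixed means of Pgr, Areg and Prlr were 121, 209 and 597 CPM, against luminal means of 84.0, 162 and 572 CPM. None of these genes passed between mixed and luminal libraries (edgeR adjusted p = 0.097, 0.33 and 0.85). The expectation adds 50% of the luminal mean to 50% of the basal mean. Prom1, prominin 1, was the member below, at 40.6, 52.4 and 13.9 CPM in mixed and 175, 233 and 335 CPM in luminal libraries (log2 -1.91 ± 0.41, adjusted p = 0.020). Against basal 2 alone the median log2 ratio of the list was 0.91. Leaving out 1 library ended the call of Pgr (mixed 1 or 2, adjusted p up to 0.057), Areg (basal 3, luminal 1, luminal 3, mixed 1 or mixed 2, up to 0.096), Prlr (luminal 1 or any mixed library, up to 0.058), Greb1 (any library but basal 2 and luminal 3, up to 0.17) and Prom1 (mixed 3, 0.051).

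Wfdc18, a secreted whey acidic protein family member, reached 14734, 13153 and 16965 CPM in mixed libraries, against 4066, 9361 and 5673 in luminal and 1017, 1764 and 1179 in basal ones (log2 1.96 ± 0.28, adjusted p = 0.0046). Podxl, an apical sialomucin, stood at 114, 94.7 and 99.5 CPM in mixed, 48.5, 54.4 and 47.2 in luminal and 17.8, 14.9 and 14.7 in basal libraries (log2 1.64 ± 0.14, adjusted p = 0.00061). Col12a1, a collagen that associates with fibrils, was a basal gene that exceeded its pure level, at 63.1, 55.9 and 46.6 CPM in mixed, 22.5, 19.2 and 20.3 in basal and 6.96, 6.23 and 4.54 in luminal libraries (log2 2.05 ± 0.19, adjusted p = 0.00079). In each of these 3 genes the lowest mixed library was above the highest pure one. Cst3, the protease inhibitor cystatin C, stood at 1189, 1140.0 and 1322 CPM in mixed libraries and at 197, 352 and 222 in basal ones, with basal 2 the highest of the pure libraries (log2 2.51 ± 0.24, adjusted p = 0.00079). Mgp, matrix Gla protein, stood at 103, 107 and 88.99 CPM in mixed and 17.8, 29.8 and 23.1 CPM in basal libraries (log2 2.72 ± 0.31, adjusted p = 0.0024). Bgn, the proteoglycan biglycan, stood at 170.3, 158 and 123 CPM in mixed and 80.3, 104 and 71.2 CPM in basal libraries (log2 1.71 ± 0.42, adjusted p = 0.028), but did not pass against basal 2 alone (adjusted p = 0.20) or without basal 1, basal 3 or any mixed library (up to 0.088).

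Among called genes at 10 CPM or more with every mixed library at least 1.5-fold above the expectation, the 12 highest log2 ratios were those of Adam12, Fmo1, Hpgd, Penk, Snorc, Rbp7, Dmbt1, Mgp, Pcp4, AW112010, Klk10 and Ephx3. Hpgd, the enzyme that breaks down prostaglandins (chromosome 8, 56747620 to 56774078), stood at 37.8, 40.9 and 44.7 CPM in mixed libraries against 2.43, 3.20 and 3.45 in basal libraries and 4.37, 6.53 and 4.17 in luminal ones (log2 3.35 ± 0.22, adjusted p = 0.00026). Adam12, a metalloprotease of the ADAM family, stood at 27.4, 32.6 and 30.8 CPM in mixed and 4.51, 4.46 and 6.96 CPM in basal libraries and was 10.98 times its expectation (adjusted p = 0.0054). Rbp7, a retinoid-binding protein, stood at 94.02, 71.9 and 88.99 CPM in mixed libraries, and at 10.4, 34.7 and 13.97 CPM in basal ones with basal 2 the highest (log2 2.77 ± 0.38, or 2.09 against basal 2). For all 12 genes each mixed library was above each pure one. Ratios of the remaining 8 ran from 2.62 for Ephx3, an epoxide hydrolase, and 2.63 for Klk10, a kallikrein, to 3.12 for Snorc, a chondroitin sulfate proteoglycan, 3.13 for Penk, the enkephalin precursor, and 3.44 for Fmo1, a flavin monooxygenase. Between them were Pcp4, a calmodulin regulator (2.72), AW112010 (2.69) and Dmbt1, a mucosal glycoprotein (2.76). Fmo1 did not pass against basal 2 alone (3.22, adjusted p = 0.17). Without mixed 3 the calls of Dmbt1 (0.052), Klk10 (0.059) and Fmo1 (up to 0.089) ended, that of Fmo1 also without basal 1 or 3. Of all 38 genes at 10 CPM or more with ratios at least as high as that of Ephx3, 26 were not called, Mucl2, Prol1 and Hba-a1 (3.52, adjusted p = 0.11) among them. For Pcp4 23.7% of exon bases are shared with another gene name.

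**Figure D3:**
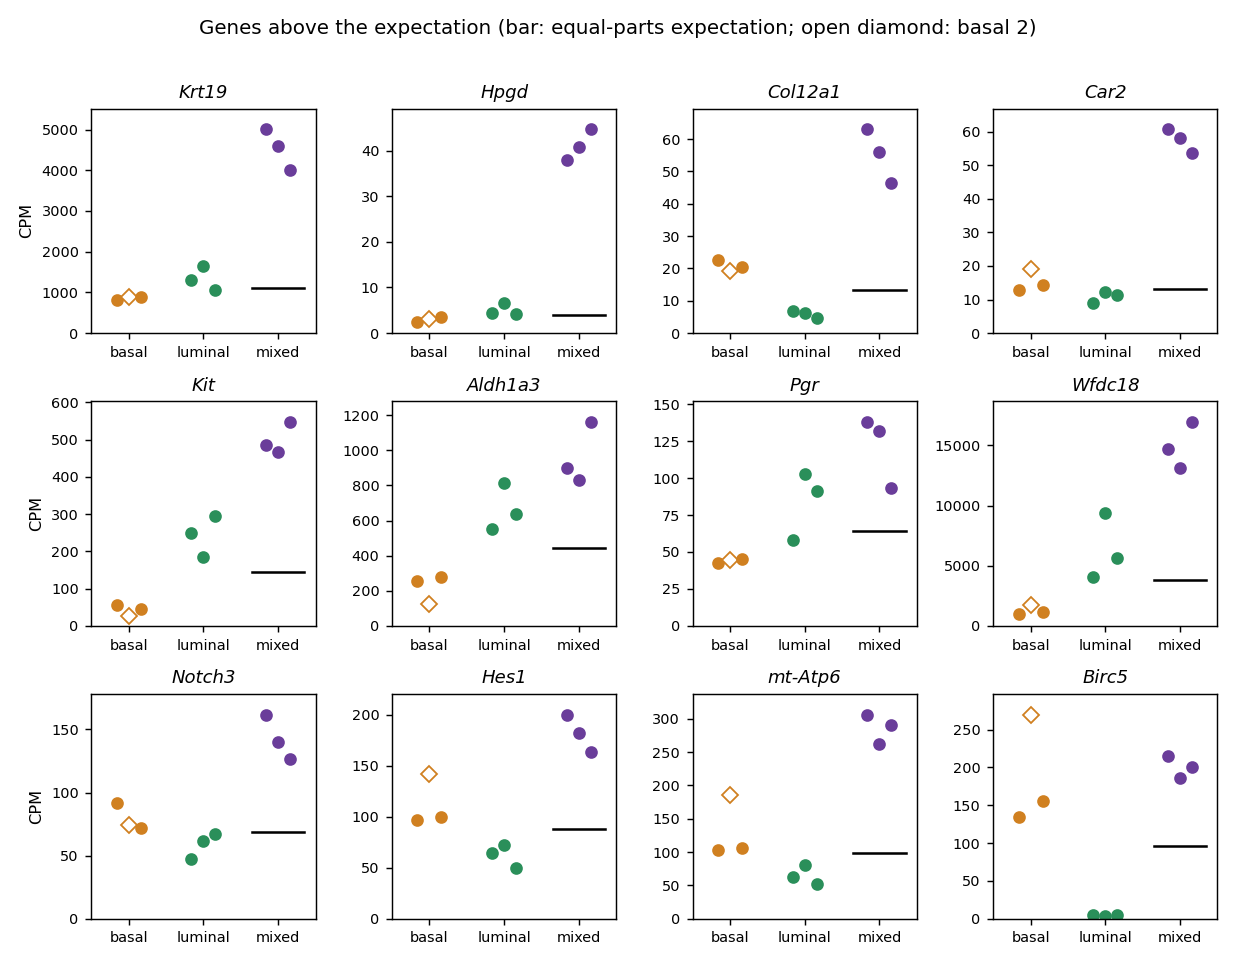
CPM in each of the 9 libraries for 12 genes above the expectation, in basal (orange, basal 2 an open diamond), luminal (green) and mixed (purple) aggregates, each panel on its own axis from 0. The bar at the mixed group is the equal-parts expectation, and in 10 panels the mixed points clear all pure ones, while for Pgr and Birc5 they overlap them.

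Squamous differentiation genes, which include keratins of stratified epithelium, were above in 4 and below in 1 of 17 (median log2 0.54). The shares over all genes were 4.76% above and 9.38% below. Krt4 stood at 114, 104 and 75.9 CPM in mixed and 12.5, 48.7 and 34.05 CPM in luminal libraries (log2 2.13 ± 0.36, adjusted p = 0.0091). Krt6a, chosen after its values were seen, stood at 421, 297 and 357 CPM in mixed and 181, 120.1 and 185 CPM in basal libraries (log2 1.56 ± 0.18, adjusted p = 0.0018). Krt23, an acidic keratin, went the other way, at 8.76, 7.999 and 3.32 CPM in mixed, 13.2, 17.7 and 16.7 in luminal and 82.5, 75.4 and 82.2 in basal libraries, below all 6 pure libraries (log2 -2.84 ± 0.28, adjusted p = 0.0012). For Krt6a 24.8% of exon bases are shared with another gene name, and reads that align to more than 1 place, as those of its near copy Krt6b can, were not counted.

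Notch3, a Notch receptor, stood at 162, 140.4 and 126 CPM in mixed, 91.6, 74.2 and 71.6 in basal and 47.4, 61.7 and 67.4 in luminal libraries (log2 1.05 ± 0.16, adjusted p = 0.0046). Hes1, a transcription factor that Notch induces, stood at 200.2, 182 and 163 CPM in mixed and 96.4, 142 and 100.2 CPM in basal libraries, with basal 2 above basal 1 and 3 (log2 1.05 ± 0.18, or 0.83 against basal 2 with adjusted p = 0.030). In both the mixed libraries were above all pure ones. Jag1, a Notch ligand, stood at 40.5, 56.7 and 42.2 CPM in mixed and 46.01, 43.9 and 41.5 CPM in basal libraries, which overlapped (log2 0.81 ± 0.17, adjusted p = 0.017), and its call ended against basal 2 alone (adjusted p = 0.064) and without basal 3 or mixed 2 (up to 0.062). Notch1 did not pass (-0.49 ± 0.15, adjusted p = 0.058). The list counts against the pooled expectation in this paragraph compare with 4.76% above and 9.38% below over all genes. Of 16 Notch pathway genes 4 were above and 2 below, and against basal 2 alone 2 and 1. Id3, an inhibitor of differentiation that BMP signals induce, stood at 1211, 1092 and 1148 CPM in mixed, 533, 346 and 95.2 in luminal and 131, 278 and 150.4 in basal libraries (log2 2.17 ± 0.41, adjusted p = 0.013). Its near relative Id1 stood at 375, 345 and 385 CPM in mixed and 272, 223 and 88.1 CPM in luminal libraries (log2 1.75 ± 0.34, adjusted p = 0.015). The luminal libraries were far apart in both genes. Id3 did not pass against basal 2 alone (1.93, adjusted p = 0.050), and Id1 did not pass without mixed 3 (adjusted p = 0.052). In the series fit the ratio of Id3 was 0.79 (adjusted p = 0.87) and that of Id1 0.42 (adjusted p = 0.94). Of 22 transforming growth factor beta and BMP genes 6 were above and 2 below, and against basal 2 alone 2 and 2.

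Among genes of FGF signalling, Fgfbp1, which binds FGFs in the matrix, stood at 110.2, 93.7 and 106 CPM in mixed and 41.8, 32.96 and 49.97 CPM in basal libraries (log2 1.53 ± 0.22, adjusted p = 0.0040). Myc, a transcription factor gene that ERK signals induce, stood at 109, 109 and 107 CPM in mixed and 92.8, 87.1 and 91.02 CPM in basal libraries (log2 0.49 ± 0.12, adjusted p = 0.023), and its call ended without basal 3 or any mixed library (up to 0.069). Below the expectation were the ETS factor genes Etv4 and Etv5, which FGF signals induce. Etv4 stood at 16.7, 11.4 and 12.96 CPM in mixed, 64.9, 75.1 and 67.9 in basal and 4.32, 7.83 and 5.35 in luminal libraries, 0.365 times the expectation of 37.6 CPM (log2 -1.46 ± 0.23, adjusted p = 0.0069; chromosome 11, 101660568 to 101676197). Etv5 stood at 65.1, 79.7 and 49.3 CPM in mixed and 226, 271 and 169 CPM in basal libraries (log2 -1.002 ± 0.23, adjusted p = 0.022), and its call ended without mixed 1 or mixed 3 (adjusted p up to 0.084). Mixed libraries of both genes lay between the 2 pure groups and nearer to the luminal one. Dusp4, an ERK phosphatase, stood at 6.07, 3.38 and 6.64 CPM in mixed libraries, below 23.7, 12.2 and 21.04 in basal and 45.1, 31.5 and 90.8 in luminal ones (log2 -2.80 ± 0.37, adjusted p = 0.0043). Dusp6, another ERK phosphatase, did not pass (-0.42 ± 0.15, adjusted p = 0.080, -0.75 to -0.09). The FGF signal inhibitors Spry2 (0.50 ± 0.31, adjusted p = 0.28) and Spry4 (-0.30 ± 0.49, adjusted p = 0.70), the cyclin gene Ccnd1 (0.75 ± 0.30, adjusted p = 0.11) and the FGF10 receptor gene Fgfr2 (-0.83 ± 0.30, adjusted p = 0.089) did not pass either. Fgfr1 was below at 166, 128 and 167 CPM in mixed and 350.1, 357 and 297 CPM in luminal libraries (log2 -0.79 ± 0.19, adjusted p = 0.025), a call that ended without basal 3, luminal 1 or any mixed library (up to 0.083). Of 21 FGF and ERK response genes 2 were above and 3 below, and of 7 tested FGF receptors and ligands 1 was above and 2 below, counts within about 1 gene of 4.76% and 9.38%, the shares over all genes.

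Transcripts of the mitochondrial genome encode subunits of the respiratory chain. They were above the expectation in 12 of 13 genes, and none was below (median log2 1.06), where 4.76% of all genes were above. They took 2.69%, 2.68% and 2.83% of raw counts in mixed 1, 2 and 3, against 2.18%, 2.10% and 2.04% in basal and 1.07%, 1.04% and 1.03% in luminal libraries, so that each mixed library was above each pure one. After TMM scaling their sum was 26998 to 29545 CPM in mixed libraries. Basal libraries held 18309 to 22121 CPM, with basal 2 the highest, and luminal ones 10490 to 11077 CPM. mt-Atp6, an ATP synthase subunit gene, stood at 306, 263 and 291 CPM in mixed and 104, 186 and 106 CPM in basal libraries (log2 1.55 ± 0.21, adjusted p = 0.0039). mt-Nd3, a complex I gene, differed by 1.30 ± 0.24 (adjusted p = 0.011), and mt-Nd6, another complex I gene chosen after its values were seen, by 1.22 ± 0.16 (adjusted p = 0.0028). Against basal 2 alone 10 of 13 were above, and none passed in the fit with the code series, where mt-Atp6 differed by 0.95 (adjusted p = 0.25).

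Mitosis and DNA replication genes were above the expectation where they were called. Of 24 mitosis genes 6 were above and none below, with a median log2 ratio of 0.52. For 24 DNA replication genes the counts were 5 and none, with a median of 0.34. The shares over all genes were 4.76% above and 9.38% below. Mki67, a marker of cycling cells, stood at 190.2, 202 and 223 CPM in mixed, 199.7, 286 and 202 in basal and 2.91, 2.97 and 4.67 in luminal libraries, against an expectation of 116 (log2 0.82 ± 0.21, adjusted p = 0.028). Birc5, the mitotic protein survivin, stood at 215, 186 and 201 CPM in mixed and 134, 269.6 and 156 CPM in basal libraries (log2 1.07 ± 0.23, adjusted p = 0.019). Prim1, a DNA primase, stood at 59.2, 57.5 and 86.8 CPM in mixed and 55.8, 75.6 and 65.9 CPM in basal libraries (log2 0.88 ± 0.20, adjusted p = 0.021). Mixed libraries were thus near basal levels, and basal 2 was the highest basal library in these 3 genes. Against basal 2 alone none of these 48 genes passed, with ratios of 0.50 for Mki67 (adjusted p = 0.22) and 0.55 for Birc5 (adjusted p = 0.096). The calls of Mki67 and Birc5 also ended without basal 3, mixed 1 or mixed 3, that of Mki67 also without basal 1 or mixed 2 (adjusted p up to 0.092 and 0.060), and with a basal share of 70%. That of Prim1 ended without basal 1, basal 3 or mixed 3 (up to 0.073). Cdk6, a G1 kinase, stood at 119, 102 and 149 CPM in mixed libraries, above 37.4, 73.02 and 44.3 in basal and 24.6, 43.7 and 24.96 in luminal ones (log2 1.58 ± 0.25, adjusted p = 0.0065), and passed against basal 2 alone (1.25).

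Nrg2, a neuregulin ligand of ERBB receptors, stood at 6.24, 5.54 and 5.61 CPM in mixed libraries, against 62.3, 65.7 and 55.2 in basal and 2.64, 1.54 and 1.06 in luminal ones, or 0.185 times the expectation (log2 -2.44 ± 0.27, adjusted p = 0.0018). Bmp7, a BMP ligand, stood at 11.4, 17.8 and 18.8 CPM in mixed and 98.5, 102 and 114 CPM in basal libraries (log2 -1.72 ± 0.22, adjusted p = 0.0034). Lama1, a laminin chain of basement membranes, stood at 6.18, 7.01 and 5.77 CPM in mixed and 44.2, 48.99 and 32.7 CPM in basal libraries (log2 -1.74 ± 0.27, adjusted p = 0.0067). For these 3 genes mixed libraries lay above luminal and below basal ones without overlap, and basal 2 was not the lowest basal library. Sema3b, a secreted semaphorin, stood at 5.09, 5.91 and 0.926 CPM in mixed, 3.56, 5.64 and 6.60 in luminal and 97.7, 85.6 and 67.4 in basal libraries (log2 -3.48 ± 0.46, adjusted p = 0.0041). Tgfbr3, a coreceptor for transforming growth factor beta, stood at 10.2, 5.23 and 4.25 CPM in mixed and 78.2, 54.5 and 57.5 CPM in basal libraries (log2 -2.44 ± 0.36, adjusted p = 0.0065). Nrg1, another neuregulin, at 8.87, 2.65 and 20.6 CPM in mixed and 75.9, 78.3 and 66.6 CPM in basal libraries (log2 -1.85 ± 0.51, adjusted p = 0.040), Reln, the secreted protein reelin, at 2.63, 6.58 and 0 and 57.2, 53.01 and 45.9 CPM (log2 -3.09 ± 0.82, adjusted p = 0.038), and Sfrp1, a secreted Wnt inhibitor, at 29.01, 27.5 and 26.4 and 168, 169 and 160.3 CPM (log2 -1.61 ± 0.36, adjusted p = 0.021), were also below. None of these 3 passed against basal 2 alone (adjusted p = 0.11, 0.092 and 0.052). Their calls ended without basal 1, basal 3, luminal 1, luminal 2, luminal 3, mixed 1 or mixed 2 for Nrg1, basal 1, basal 3, luminal 1, luminal 3 or mixed 1 for Reln and basal 3, mixed 1, mixed 2 or mixed 3 for Sfrp1 (up to 0.11, 0.10 and 0.074). Btc, the ligand betacellulin, was above at 30.7, 47.3 and 33.9 CPM in mixed and 19.5, 29.1 and 27.3 CPM in luminal libraries (log2 1.03 ± 0.22, adjusted p = 0.019), a call that ended without mixed 2 or mixed 3 (up to 0.064). Of 21 basement membrane genes 2 were below and none above (median log2 -0.34), near the 9.38% below over all genes. Of 14 EGF family genes 3 were above and 2 below, where 4.76% of all genes were above.

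The median of basal identity genes was near the expectation. Of 20 basal and myoepithelial markers none was above and 2 were below, where over all genes 4.76% were above and 9.38% below. The median log2 ratio was -0.03, with members from -1.14 to 1.74. At a basal share of 30% the median was 0.49 and at 70% it was -0.44. Krt5 stood at 1157, 1084 and 1129 CPM in mixed and 1787, 1630.3 and 2109 CPM in basal libraries with an expectation of 929.9 (0.27 ± 0.21, adjusted p = 0.38, -0.18 to 0.73). Krt14 differed by 0.00 ± 0.22 (-0.48 to 0.48), Trp63 by 0.10 ± 0.19 (-0.32 to 0.53) and Acta2, smooth muscle actin, by 0.52 ± 0.39 (-0.34 to 1.37), with adjusted p of 0.99, 0.74 and 0.38. Vim, vimentin, differed by -0.08 ± 0.50 (adjusted p = 0.92) and Snai2, a transcription factor of basal cells, by -0.06 ± 0.47 (adjusted p = 0.94). With standard errors of 0.39 or more, the values of Acta2, Vim and Snai2 do not show that they lay near the expectation. Cdh1, E-cadherin, did not pass either (-0.41 to 0.40, adjusted p = 0.99). The intervals are at 95% without adjustment. The 2 genes below were Cdh3, P-cadherin, at 45.9, 41.96 and 32.7 CPM in mixed and 177, 132 and 166 CPM in basal libraries (log2 -1.04 ± 0.21, adjusted p = 0.016), and Pdpn, podoplanin, at 37.4, 27.5 and 32.02 and 118, 184 and 123 CPM (log2 -1.14 ± 0.25, adjusted p = 0.020). Cdh3 did not pass against basal 2 alone (adjusted p = 0.087), and leaving out mixed 3 ended both calls, as did leaving out basal 3 for Cdh3 and mixed 2 for Pdpn (adjusted p up to 0.063 and 0.068).

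**Figure D4:**
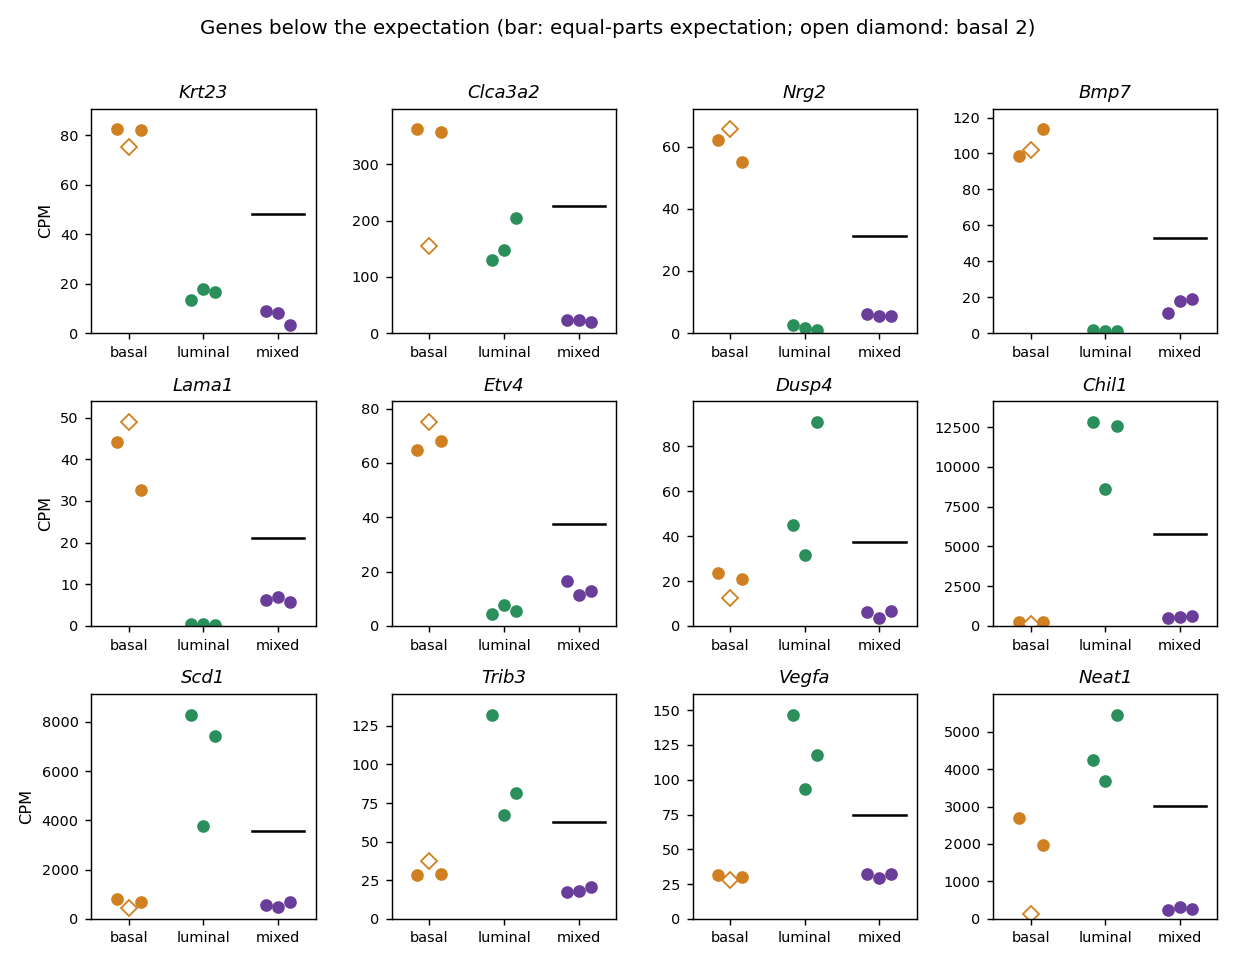
CPM in each of the 9 libraries for 12 genes below the expectation, in basal (orange, basal 2 an open diamond), luminal (green) and mixed (purple) aggregates, each panel on its own axis from 0. The bar is the equal-parts expectation, and the mixed points lie below it in every panel; for Neat1 basal 2 lies with the mixed libraries.

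Genes with milk and lipid functions, most of those named here luminal-high, were among those below. So was Chil1, a luminal-high gene of the acute-phase and secreted defence list. Chil1, a chitinase-like secreted protein (chromosome 1, 134109914 to 134117919), stood at 514, 553 and 632 CPM in mixed, 12825, 8602 and 12573 in luminal and 273, 109.8 and 269 in basal libraries, and reached 0.0981 times the expectation of 5775 CPM (log2 -3.35 ± 0.30, adjusted p = 0.00079). Scd1, the stearoyl-CoA desaturase, stood at 547, 462 and 673 CPM in mixed and 8295, 3787 and 7423 CPM in luminal libraries, and 817, 449.7 and 700.0 in basal ones (log2 -2.67 ± 0.29, adjusted p = 0.0021; chromosome 19, 44382894 to 44396318). Mixed libraries of Scd1 were at basal levels. Xdh, which helps to form milk fat globules, stood at 49.2, 56.5 and 27.3 CPM in mixed and 389, 244 and 660.3 CPM in luminal libraries (log2 -2.40 ± 0.37, adjusted p = 0.0069). Plin2, a lipid droplet coat gene, and Csn3, kappa casein, were chosen after their values were seen, and their mixed libraries were below all pure ones. Plin2 stood at 162, 150.3 and 120.0 CPM against an expectation of 382 (log2 -1.40 ± 0.20, adjusted p = 0.0055), and Csn3, which was higher in basal (878, 1052 and 794 CPM) than in luminal libraries (344, 223 and 298 CPM), at 215, 147 and 114 CPM against 598 (log2 -1.91 ± 0.22, adjusted p = 0.0024). Lalba, alpha-lactalbumin, stood at 9.38, 5.91 and 8.55 CPM in mixed and 16.5, 142 and 88.1 CPM in luminal libraries (log2 -2.37 ± 0.55, adjusted p = 0.024), a call that ended without luminal 2, luminal 3 or any mixed library (up to 0.078) and a ratio that turned to 0.12 in the series fit. Of 9 milk protein and milk fat genes 4 were below and none above (median log2 -0.39). For 15 fatty acid synthesis genes the counts were 6 and none (median -0.60, or -0.38 against basal 2 alone). The shares over all genes were 9.38% below and 4.76% above.

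Genes of glycolysis, hypoxia and cell stress were below the expectation in several lists and seldom above it. Vegfa, the angiogenic growth factor that hypoxia induces, stood at 32.5, 29.6 and 32.1 CPM in mixed, 147, 93.1 and 118 in luminal and 31.7, 27.9 and 30.2 in basal libraries (log2 -1.25 ± 0.17, adjusted p = 0.0039). Ndrg1, another hypoxia gene, chosen after its values were seen, was below all pure libraries at 131, 96.2 and 119 CPM (log2 -1.12 ± 0.14, adjusted p = 0.0028). Of 24 glycolysis and hypoxia genes 7 were below and 1 above, where over all genes 9.38% were below and 4.76% above. The median log2 ratio of the list was -0.44, or -0.43 against basal 2 alone. Trib3, a pseudokinase gene of the integrated stress response, stood at 17.5, 18.1 and 20.9 CPM in mixed, 28.4, 37.3 and 28.9 in basal and 132, 66.9 and 81.3 in luminal libraries, below every pure library (log2 -1.73 ± 0.22, adjusted p = 0.0037). Ppp1r15a, which ends that response, differed by -1.26 ± 0.24 (adjusted p = 0.014). Of 21 unfolded protein and integrated stress genes 5 were below and none above.

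Antioxidant genes that the factor NRF2 controls were below in 5 and above in none of 15. The shares over all genes were 9.38% below and 4.76% above. The median log2 ratio of the list was -0.49, or -0.61 against basal 2 alone. Gclc, which starts glutathione synthesis, stood at 94.1, 99.3 and 157 CPM in mixed, 578, 320.4 and 594 in luminal and 174, 147 and 143 in basal libraries (log2 -1.48 ± 0.24, adjusted p = 0.0078). Hmox1, heme oxygenase, stood at 47.8, 50.1 and 52.1 CPM in mixed and 384, 141 and 149.5 CPM in luminal libraries, with luminal 1 the highest (log2 -1.54 ± 0.32, adjusted p = 0.019). Srxn1, sulfiredoxin, chosen after its values were seen, was below all pure libraries at 46.9, 33.3 and 42.2 CPM (log2 -1.21 ± 0.21, adjusted p = 0.011). Mixed 3 was above basal 3 in Hmox1, and its call ended without any 1 of the mixed libraries (adjusted p up to 0.065).

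By the same rule, the 12 lowest log2 ratios among called genes belonged to 2010007H06Rik, Dnajb13, Neat1, Sema3b, Gm49759, Clca3a2, Chil1, Dgkq, Apobec1, Acaa1b, Pcdhgc3 and Chrdl2. Clca3a2, a calcium-activated chloride channel regulator (chromosome 3, 144502320 to 144525255), stood at 23.2, 22.8 and 19.3 CPM in mixed, 363, 154 and 358 in basal and 130.5, 148 and 205 in luminal libraries, below all pure ones (log2 -3.38 ± 0.26, adjusted p = 0.00061). Neat1, a nuclear noncoding RNA, stood at 233, 312 and 257 CPM in mixed libraries and 2705, 116 and 1968 CPM in basal ones, where basal 2 was below the mixed libraries, and at 4229.6, 3688 and 5452 CPM in luminal ones (log2 -3.50 ± 0.63, adjusted p = 0.017). In the fit with the code series its ratio turned to 0.71 (adjusted p = 0.63), and its call ended without any 1 of the mixed libraries (up to 0.070). Gm49759 followed the same series: basal libraries held 32.2, 1.82 and 22.02 CPM and mixed ones 1.26, 4.98 and 0.871 CPM (-3.39, and 0.52 in the series fit). Chrdl2, a BMP antagonist of the chordin family, and Acaa1b, a peroxisomal thiolase, were luminal genes at 4.29, 6.09 and 4.96 and 2.63, 2.95 and 1.69 CPM in mixed libraries (log2 -3.11 and -3.27). Apobec1, a cytidine deaminase, was a basal gene at 1.09, 1.66 and 4.47 CPM in mixed and 51.5, 33.9 and 50.7 CPM in basal libraries (-3.30). The ratios of Dnajb13, Dgkq and Pcdhgc3 were -3.69, -3.31 and -3.21, and 2010007H06Rik, at 0.401, 0 and 0 CPM in mixed and 27.2, 9.75 and 21.9 CPM in basal libraries, had -6.29. Dgkq and Pcdhgc3 share 30.8% and 66.9% of their exon bases with other gene names. Calls ended for Dgkq and Gm49759 without basal 3, mixed 1 or mixed 3, for Gm49759 also without luminal 3, and for Pcdhgc3 without mixed 3 (adjusted p up to 0.078, 0.099 and 0.056).

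Few genes passed the test of lying outside both pure groups, which no share of the 2 cell kinds would give. By edgeR's quasi-likelihood test of both contrasts 9 genes were above (0.0499%) and 7 below (0.0388%), and 667 and 1384 had an unadjusted p under 0.05. Above were Hpgd, Krt19, Car2, Podxl, AW112010, Col12a1, Cst3, Epb41l4a and Snorc. Car2, a carbonic anhydrase, stood at 60.8, 58.02 and 53.7 CPM in mixed, 12.7, 19.01 and 14.4 in basal and 8.85, 12.2 and 11.3 in luminal libraries (log2 to the expectation 2.14 ± 0.18, adjusted p = 0.00061), and Epb41l4a, a membrane skeleton gene, differed by 1.54 ± 0.18. Named below were Clca3a2, Tesk1, Echdc2, Tinagl1 and Aifm2. Tinagl1, a basement membrane glycoprotein, stood at 67.8, 70.7 and 52.4 CPM in mixed, 152, 153 and 152 in basal and 158, 154 and 136 in luminal libraries (log2 -1.24 ± 0.14, adjusted p = 0.0021), with the pure libraries close together. Echdc2, a mitochondrial hydratase-like gene, differed by -1.64, Tesk1, a kinase that acts on cofilin, by -1.68 and Aifm2, which protects membranes from lipid oxidation, by -2.02, and 32.1% of the exon bases of Tesk1 are shared. With the code series as a term edgeR called 0 genes in this test, with 545 at an unadjusted p under 0.05. Leaving out 1 library gave 1 to 625 genes above and 0 to 682 below. By their ranges alone, all 3 mixed libraries were above all 6 pure ones at 907 genes (5.02%) and below them at 1300 (7.20%).

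As a description with no test, the median summed exon length was 3890 bases for genes above, 4160 for genes below and 3536 for all tested genes. Names of the Gm and Rik kinds, mostly of genes without a studied function, made up 9.90% of genes above and 15.5% of those below, against 22.6% of all. The median expectation was 36.4 CPM for genes above and 40.2 for genes below, against 17.9 over all, and lower counts give the test less precision.

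**Figure D5:**
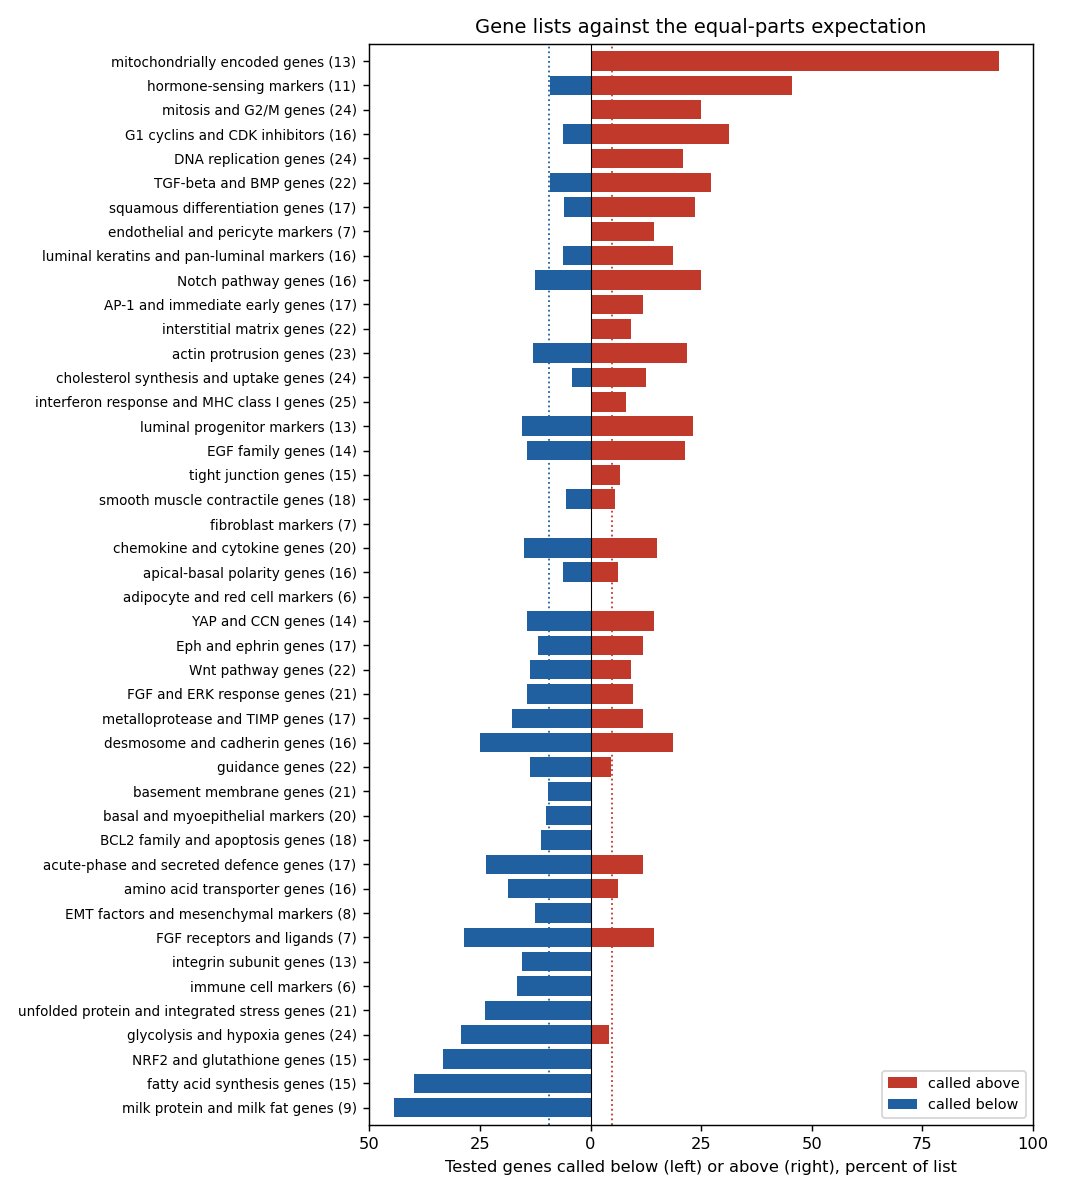
Percentage of the tested genes of each of 44 lists called above (red, right) or below (blue, left) the expectation, with the number tested in brackets. Dotted lines mark 4.76% and 9.38%, the shares over all tested genes; mitochondrially encoded genes stand highest on the right and milk genes lowest on the left.

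Over all genes 4.76% were above and 9.38% below, against which the counts of further lists can be read. Of 24 cholesterol genes 3 were above and 1 below, of 22 interstitial matrix genes 2 and none, of 13 integrin subunit genes none and 2, and of 15 tight junction genes 1 and none. Of 23 actin protrusion genes 5 were above and 3 below, of 16 desmosome and cadherin genes 3 and 4, of 18 smooth muscle contractile genes 1 and 1, and of 8 mesenchymal markers none and 1. Of 22 Wnt pathway genes 2 were above and 3 below, and of 22 guidance genes 1 and 3. Of 17 Eph and ephrin genes 2 were above and 2 below. Epha4, an Eph receptor, stood at 51.1, 62.9 and 75.5 CPM in mixed and 22.6, 30.9 and 23.1 CPM in basal libraries (log2 1.37 ± 0.22, adjusted p = 0.0055). Efnb2, an ephrin ligand, stood at 31.2, 31.7 and 69.8 CPM in mixed and 24.1, 18.96 and 24.8 CPM in basal libraries (log2 1.24 ± 0.26, adjusted p = 0.016), with mixed 3 the highest, and its call ended without mixed 3 (adjusted p = 0.060). The lists were chosen with earlier results of these data known, so their counts describe these genes and test nothing.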

How the data were processed

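RNA sequencing of 9 libraries (3 basal, 3 luminal, 3 mixed) was deposited as 1 table of raw counts per gene name. The authors counted reads with featureCounts 2.0.1 over exons, as fragments, without strand and without reads that map to several places, per the file headers, on mm39; aligner settings and annotation release: not given in the sources used here. Antisense or overlapping genes cannot be told apart. Groups and numbers came from the titles, and the descriptions number some libraries differently. Tests used edgeR 4.0.16 in R 4.3.3 (low-count filter, TMM, quasi-likelihood F test of mixed against the equal-parts mean of basal and luminal on the linear scale, Benjamini-Hochberg over 18051 genes, threshold 0.05). Errors are delta-method standard errors. limma 3.58.1 (voom), DESeq2 1.42.0, other scalings, filters, basal shares and references, a replicate block and leaving out each library were alternatives. The test was tried on simulated data. The genes named were drawn from the 12 highest and 12 lowest ratios at 10 CPM or more with every mixed library at least 1.5-fold on that side, up to 2 per direction of each of 44 lists, genes outside both groups, and a fixed set of 28 genes (6 above, 5 below, 17 not called); not all are printed. The members and lists were chosen with earlier results of these data known.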

Additional observations from a re-analysis of the deposited data

How the results depend on the processing

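The depth of 15585324 to 19164405 counts per library and 3 libraries per group limit the test more at low counts, and the code series is confounded with the mixed group except through basal 2. Counts of genes above and below were 1603 and 2830 with every gene of at least 1 count (290 and 600 outside both pure groups), 1522 and 3131 with DESeq2, and 11 and 18 against a 1.5-fold change. There were 1643 above with limma-voom, 1796 above with a geometric midpoint, and 1617 above with 30% basal RNA. With basal 2 as the only basal reference they were 284 and 1037, with basal 1 and 3 they were 2706 and 3054, and with the code series as a term 47 and 50 (0 and 0 outside both groups). The calls shared by the pooled fit, both basal references and the series fit, an alternative chosen after seeing the data, were 22 and 37. Leaving out 1 library gave 140 (mixed 3) to 2684 (basal 2) above, 334 (mixed 3) to 3059 (basal 2) below, and 1 to 625 above and 0 to 682 below both pure groups. Leaving out luminal 2 moved only the last of these counts by over 1.5 times, to 3, while leaving out each other library moved the counts against the expectation by more than that. Libraries with the same title number did not deviate together (r from -0.20 to 0.37, 4 of 9 best with their own number). With 3 libraries per group and code series spread unevenly over the groups, this check cannot exclude a pairing. The fit with the replicate block gave 2 genes below both pure groups. The median ratio over all genes was -0.11, and with other scalings it was -0.12 to -0.19. The implied shares were 52.9% and 43.6% at 4-fold, 42.2% basal and 28.9% luminal with library size only, and 28.6% luminal with DESeq2 size factors.

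Signs turned mostly for genes near the expectation. Krt14 went to -0.031 with DESeq2 or its size factors, -0.11 with library size, -0.017 with the upper quartile, -0.024 with every gene, -0.0068 with 1 CPM in 3 libraries, -0.098 and -0.19 at 60% and 70% basal, -0.090 at the fitted share, -0.0023 with basal 1 and 3, -0.0065 with the replicate block and -0.061 in the series fit. Epcam went to -0.0061 with DESeq2 or its size factors, -0.033 with library size, -0.0046 with every gene, -0.13 and -0.056 at 30% and 40% basal, -0.071 with basal 2 and -0.35 in the series fit. Trp63 went to -0.054 with library size, -0.11 and -0.30 at 60% and 70%, -0.094 at the fitted share and -0.0049 with basal 1 and 3. Cdh1 went to 0.019 with limma-voom, 0.0036 at the geometric midpoint, 0.024 and 0.052 at 60% and 70%, 0.022 at the fitted share, 0.12 with basal 2, 0.016 with the block and 0.33 in the series fit. Vim went to 0.11 with limma-voom, 2.99 at the midpoint, 0.65 and 0.24 at 30% and 40%, 0.62 with basal 1 and 3 and 0.16 with the block. Snai2 went to 2.17 at the midpoint, 0.66 and 0.26 at 30% and 40% and 0.038 with basal 1 and 3. At 70% basal Krt5 went to -0.20 and Krt18 to 0.055. The geometric midpoint turned Bmp7 to 0.55, Lama1 to 0.84, Cdh3 to 0.26, Pdpn to 2.08, Lalba to 1.02 and Sfrp1 to 0.29. Against that midpoint Lama1 and Pdpn were called above, as were Vim and Snai2. Among its calls above, 15 genes were called below in the pooled fit. The series fit turned Neat1 to 0.71, Gm49759 to 0.52, Lalba to 0.12, Ltf to 1.92, Krt18 to 0.0027, Spry2 to -0.50 and Spry4 to 0.054. Leaving out 1 library gave ratios of -0.094 to 0.11 for Krt14, -0.016 to 0.078 for Epcam, -0.098 to 0.086 for Cdh1, -0.0049 to 0.29 for Trp63, -0.34 to 0.62 for Vim, -0.35 to 0.085 for Snai2 and -0.66 to 0.068 for Spry4. The cause was not tested.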

Other observations

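Interferon response and antigen presentation genes were above the expectation in 2 of 25 and below it in none, although 21 of 25 had a ratio above 0 (median log2 0.56). Of 17 AP-1 and immediate early genes 2 were above and none below. Over all genes 4.76% were above and 9.38% below. Klf4, an epithelial transcription factor that growth signals induce, stood at 77.1, 61.3 and 50.2 CPM in mixed, 25.3, 32.05 and 20.9 in luminal and 8.62, 14.5 and 10.3 in basal libraries (log2 1.76 ± 0.22, edgeR adjusted p = 0.0028). Klf4 did not pass in the fit with the code series (adjusted p = 0.39).

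Of 16 G1 cyclin and CDK inhibitor genes 5 were above and 1 below, and of 14 YAP target and CCN genes 2 and 2. Of 20 chemokine and cytokine genes 3 were above and 3 below, of 17 acute-phase and secreted defence genes 2 and 4, and of 17 metalloprotease and TIMP genes 2 and 3. Of 16 amino acid transporter genes 1 was above and 3 below, of 16 polarity genes 1 and 1, and of 18 BCL2 family and apoptosis genes none and 2. Over all genes 4.76% were above and 9.38% below. The polarity list, with 6.25% on each side, and the BCL2 list, with 11.1% below, were near these shares. Among markers of other cells, none of 7 tested fibroblast genes and none of 6 adipocyte and red cell genes was called, 1 of 6 immune genes was below and 1 of 7 endothelial and pericyte genes, Notch3, was above.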
